A study of Homo sapiens with 6 samples.

Results

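Interferon-stimulated genes were read in DLD-1, an established line from a human colorectal adenocarcinoma that carries mutant APC, with and without ectopic DKK1. The genes were a list of 37 transcripts that interferons are known to induce, chosen by name and role, with SAMD9 among them because its lower value in DLD-1/DKK1 cells was already known. A gene was measured where a probe set of the array carried its symbol and no other, which held for 36 of the 37, out of 18404 genes measured in this way. No listed gene had more than 1 such probe set. STAT2 was not analysed here, and DDX58 is given under its current symbol RIGI.

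DLD-1/DKK1 cells carried a lentivirus with an inducible, V5-tagged DKK1 gene, and DLD-1/Mock cells carried the vector without DKK1. Both had been treated with doxycycline, so the inducer is common to the groups. Its concentration is 10 mg/ml in the labels but stands in micrograms in the methods of the study, and the exposure lasted a day. RNA of 3 dishes per group was hybridised to 6 whole-transcript arrays, and nothing in the sources used here says whether the dishes came from more than 1 transduction, so that the p-values cover only the variation among these dishes. The labels name no interferon treatment in either group. Values are log2 expression, and a difference of 1 on this scale is a doubling.

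Type I and type III interferons signal through JAK1 and TYK2 to a complex that contains STAT2 and IRF9 and binds the interferon-stimulated response element (ISRE) in promoters. The induced proteins block viral entry, translation and RNA replication, sense viral RNA, or feed back on the pathway. Interferon-gamma acts at gamma-activated sites (GAS). SAMD9 and its neighbour SAMD9L encode large cytoplasmic proteins that restrict viruses and cell growth.

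The arrays as a whole were checked first. DKK1 had a log2 expression of 12.35 ± 0.04 in DLD-1/DKK1 and 5.30 ± 0.38 in DLD-1/Mock cells (SD, n = 3 each), as labelled. Of 9 epithelial markers, 7 lay in the brightest 25% of all genes, among them EPCAM and CDH1. Mock 2 correlated least with the other arrays (0.9953 to 0.9969 over all probe sets). With a limma adjusted p under 0.05, 16 of all 32321 probe sets were lower (0.0495%) and 12 higher (0.0371%) in DLD-1/DKK1 cells, and after median centring 7 were lower and 10 higher.

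The promoters of SAMD9, SAMD9L, HERC5 and IFI6 are shown because SAMD9 is the 1 listed gene that passed the test, SAMD9L lies next to it, HERC5 had the highest fold change and IFI6 had, like HERC5, 3 matches in its window. Each is the 300 bases from 250 before to 50 after the start of the gene, 5′ to 3′ on its own strand, from RefSeq (GRCh38.p14). Capitals mark matches to the ISRE core, which is GAAA, any 2 bases and GAAA again, searched on both strands, so that a match on the opposite strand reads TTTC, any 2 bases and TTTC, as in HERC5. Overlapping matches run together.
SAMD9 (chr7:93117930-93118229, minus strand): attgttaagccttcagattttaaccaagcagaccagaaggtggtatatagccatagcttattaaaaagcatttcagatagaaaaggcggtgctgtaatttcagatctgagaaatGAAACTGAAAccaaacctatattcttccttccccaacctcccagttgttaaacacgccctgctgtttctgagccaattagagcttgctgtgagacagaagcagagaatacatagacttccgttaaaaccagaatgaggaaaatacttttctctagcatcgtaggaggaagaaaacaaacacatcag
SAMD9L (chr7:93148336-93148635, minus strand): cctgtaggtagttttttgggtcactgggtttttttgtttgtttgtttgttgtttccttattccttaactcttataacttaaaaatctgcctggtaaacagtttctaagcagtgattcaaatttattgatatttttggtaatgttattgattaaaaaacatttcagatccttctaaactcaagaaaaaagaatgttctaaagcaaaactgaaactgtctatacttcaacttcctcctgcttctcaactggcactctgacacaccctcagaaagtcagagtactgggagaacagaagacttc
HERC5 (chr4:88456869-88457168, plus strand): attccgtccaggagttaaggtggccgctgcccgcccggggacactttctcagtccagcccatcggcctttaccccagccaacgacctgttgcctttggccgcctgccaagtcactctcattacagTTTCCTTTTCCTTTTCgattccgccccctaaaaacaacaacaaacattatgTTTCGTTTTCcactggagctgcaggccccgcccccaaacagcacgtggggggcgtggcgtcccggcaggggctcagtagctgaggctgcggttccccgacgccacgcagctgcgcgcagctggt
IFI6 (chr1:27672143-27672442, minus strand): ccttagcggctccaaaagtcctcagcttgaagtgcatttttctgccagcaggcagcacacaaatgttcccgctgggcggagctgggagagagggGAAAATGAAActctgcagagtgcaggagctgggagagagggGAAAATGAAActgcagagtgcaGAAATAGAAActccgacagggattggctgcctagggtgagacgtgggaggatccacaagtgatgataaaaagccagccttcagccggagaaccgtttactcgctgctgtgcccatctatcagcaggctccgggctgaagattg

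SAMD9 held 1 match, which begins 136 bases before the start, and HERC5 and IFI6 held 3 each. In SAMD9L these letters were not found in the window. Among the listed genes, 31 had a promoter in the table, and 21 of these (67.7%) held the ISRE core in at least 1 window, against 4.38% of the 27305 genes of the table. The GAS letters, TTC, any 3 bases and GAA, were found for 11 of the 31 (35.5%), against 9.38% of all genes. These matches describe letters and not binding. In IFI27, BST2, IFITM1 and MX1 a GAS match overlapped an ISRE core.

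**Figure D1:**
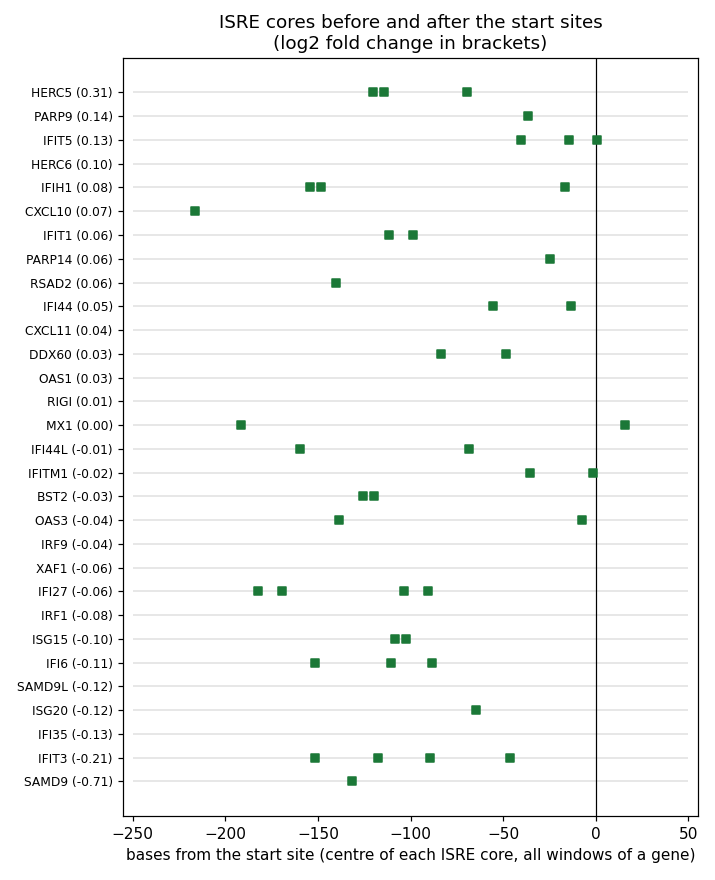
Position of each ISRE core (green squares, centre of the match) from 250 bases before to 50 bases after the start site (horizontal axis, in bases) for the 30 measured genes with a promoter in the table, ordered by log2 fold change with the highest at the top and the lowest at the bottom, with several windows of a gene drawn together. Genes with and without a core lie throughout the order, and SAMD9 at the bottom has 1.

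SAMD9 was lower in DLD-1/DKK1 cells than in DLD-1/Mock cells, and the remaining listed genes did not share a change of this size. Its log2 expression was 6.78, 6.74 and 6.72 in the DLD-1/DKK1 arrays, against 7.55, 7.32 and 7.50 in the DLD-1/Mock arrays. All 3 DLD-1/DKK1 arrays thus lay below all 3 DLD-1/Mock arrays. The log2 fold change was -0.71 (95% interval -0.87 to -0.55, SE 0.07, limma adjusted p = 0.0417), a 1.64-fold lower value. Of the 18404 genes, SAMD9 ranked at position 2 from the lowest fold change. The exact permutation test, taken two-sided, returned p = 0.1, the smallest that 3 arrays against 3 allow. In RNA of whole dishes, fewer cells with the transcript and less transcript per cell cannot be told apart.

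The study also lists a quantitative RT-PCR assay for SAMD9, whose values its text does not give. The call on the arrays rested on the processing and on single arrays. It was lost, with adjusted p values of 0.06 to 0.23 in limma, under quantile normalisation, median centring, cyclic loess, no moderation and a replicate block, and without any one array other than Mock 2.

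SAMD9L, the paralogue beside SAMD9 on chromosome 7, did not pass. Its log2 expression was 4.51, 4.60 and 4.64 in DLD-1/DKK1 and 4.61, 4.69 and 4.81 in DLD-1/Mock cells, with overlapping groups. The log2 fold change was -0.12, with a 95% interval of -0.27 to 0.03. The difference between SAMD9 and SAMD9L within an array was 2.16 ± 0.10 in DLD-1/DKK1 and 2.75 ± 0.16 in DLD-1/Mock cells (SD, n = 3 each), or 0.59 smaller with DKK1. All arrays of the groups were separate in this measure. Since SAMD9 was listed with its lower value known, this separation is a description and not a further test. SAMD9L was dim, at percentile 7.19 of all genes by brightness.

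**Figure D2:**
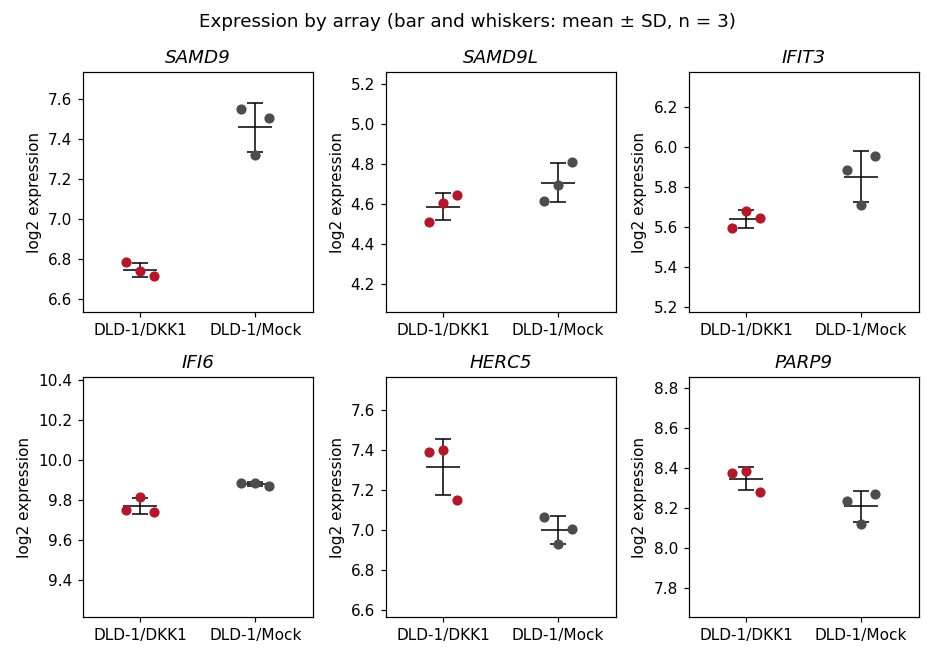
Log2 expression (vertical axis, the same span in every panel) of SAMD9, SAMD9L, IFIT3, IFI6, HERC5 and PARP9 in single arrays of DLD-1/DKK1 (red) and DLD-1/Mock (grey), with the mean ± SD of 3 arrays. The SAMD9 groups lie furthest apart, at 6.75 against 7.46, and SAMD9L overlaps.

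Leukocyte markers were read beside SAMD9, although the dishes held a cell line and the labels name no leukocytes. The summed log2 level of 9 measured leukocyte markers ranged from 49.0 to 49.4 in DLD-1/DKK1 and from 49.6 to 50.6 in DLD-1/Mock arrays. The summed level of all genes below the median brightness, where each of the 9 lay, was also separate, at 53459 to 53646 in DLD-1/DKK1 and 53675 to 54224 in DLD-1/Mock arrays. Below 0 in fold change were 8 of the 9 markers, against 68.9% of all genes below that brightness. CD14 (-0.27) and CD68 (-0.26) were lower at an unadjusted limma p under 0.05 (22.2% of the 9). That share was 5.45% of all genes and 7.09% of those below the median brightness. Of the 9, 0 passed over all probe sets. Of 6 fibroblast markers, 0 were lower at an unadjusted limma p under 0.05. A link of the leukocyte markers with the SAMD9 result was not tested. PTPRC, carried by all leukocytes, had 4.34 in both groups, at percentile 2.56 of all genes.

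The basal level of the genes in this line spanned most of the scale. Brightness depends on the probes as well as on the transcript, so that the values place each probe set on the scale of its arrays and do not rank genes by transcript number. Of the 36 genes, 12 lay in the lowest 25% of all genes by brightness, 24 in the lowest 50% and 4 in the highest 25%. The median of the 36 was 6.34 in DLD-1/DKK1 and 6.36 in DLD-1/Mock cells, and that of all genes was 7.66 and 7.69.

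The 4 genes of the highest 25% were OAS1, OAS3, PARP14 and IFI6. OAS1, which makes the oligoadenylates that activate RNase L, had 10.46, 10.46 and 10.44 in DLD-1/DKK1 and 10.42, 10.42 and 10.43 in DLD-1/Mock arrays. OAS3, of the same family, had 10.18, 10.31 and 10.27 in DLD-1/DKK1 and 10.32, 10.27 and 10.28 in DLD-1/Mock arrays. PARP14, an ADP-ribosyltransferase, had 9.98, 9.99 and 9.99 in DLD-1/DKK1 and 9.98, 9.94 and 9.87 in DLD-1/Mock arrays. The groups of OAS1 and PARP14 did not overlap, yet their log2 fold changes were 0.03 and 0.06, and the OAS3 groups overlapped.

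At the other end lay IFI44, IFI44L and CXCL10. IFI44, a cytoplasmic protein of the antiviral response, had 4.45, 4.41 and 4.50 in DLD-1/DKK1 and 4.40, 4.39 and 4.41 in DLD-1/Mock arrays. IFI44L, its neighbour on chromosome 1, had 4.46, 4.58 and 4.45 in DLD-1/DKK1 and 4.44, 4.57 and 4.51 in DLD-1/Mock arrays. CXCL10, a chemokine for CXCR3, had 4.56, 4.72 and 4.65 in DLD-1/DKK1 and 4.65, 4.49 and 4.57 in DLD-1/Mock arrays. In all 3 genes the groups overlapped, at percentiles 3.67 to 6.54 of all genes. CXCL11, BST2, DDX60, RSAD2, IFIT2, XAF1, IFIT3, OAS2 and SAMD9L made up the rest of the lowest 25%, in which a change could have been missed.

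**Figure D3:**
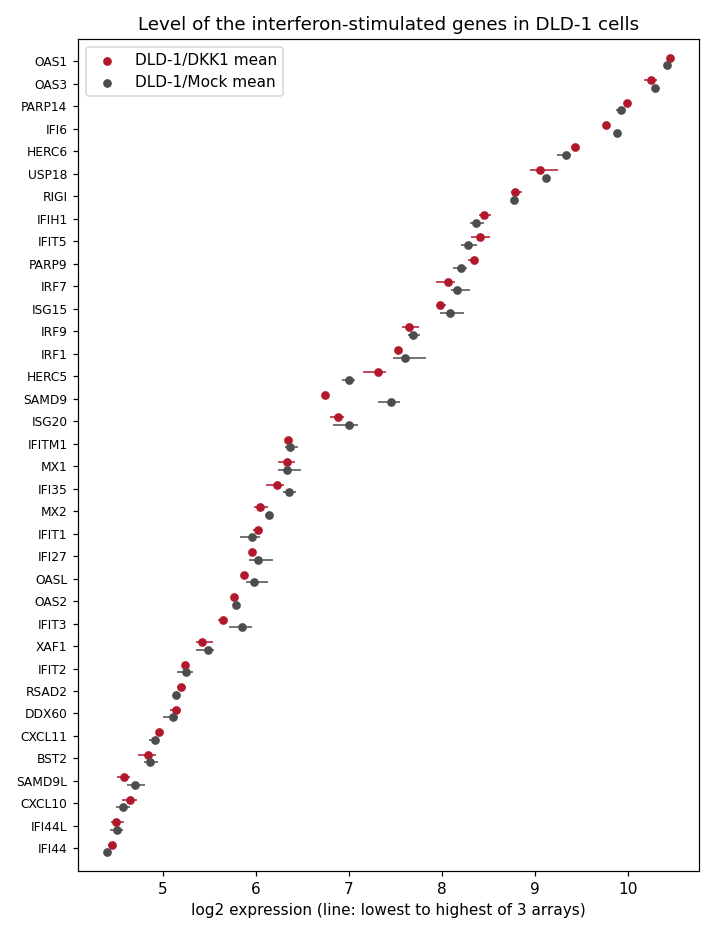
Mean log2 expression (horizontal axis) of the 36 interferon-stimulated genes in DLD-1/DKK1 (red, upper point of each gene) and DLD-1/Mock cells (grey, lower point), with lines from the lowest to the highest of 3 arrays, ordered by brightness. Levels run from about 4.45 for IFI44 to 10.45 for OAS1 in DLD-1/DKK1 cells, and SAMD9 is the gene whose points lie furthest apart.

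The comparison then asked whether the lower value of SAMD9 was shared. Since SAMD9 was listed with its lower value known, its own call says nothing about the list, and the counts are those of the other 35 genes. Of these, 0 passed over all probe sets in limma in either direction (0.0495% of all probe sets were lower and 0.0371% higher). Without adjustment, 2 were lower at a p under 0.05 (5.71%, against 5.45% of all genes) and 2 were higher (5.71%, against 4.67%). All arrays of DLD-1/DKK1 lay below those of DLD-1/Mock for 3 genes (8.57%, against 9.8% of all genes) and above them for 5 of the 35 (9.69% of all genes).

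Without SAMD9, the log2 fold changes of the other 35 genes ran from -0.21 to 0.31 with a median of -0.02, and 33 of them were under 0.15 in size. Each of the 35 had a 95% interval that lay wholly above the SAMD9 estimate of -0.71, as had 18372 of the 18404 genes. The lowest bound of any was -0.38. The median of all genes was -0.01.

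IFIT3 and IFI6 were the other genes that were lower at an unadjusted p under 0.05. IFIT3, which supports the binding of foreign RNA by IFIT1, had 5.59, 5.68 and 5.65 in DLD-1/DKK1 and 5.89, 5.71 and 5.96 in DLD-1/Mock arrays. Its log2 fold change was -0.21 with an SE of 0.07 (limma adjusted p = 0.489). IFI6, a small membrane protein that restricts flaviviruses, had 9.75, 9.82 and 9.74 in DLD-1/DKK1 and 9.89, 9.88 and 9.87 in DLD-1/Mock arrays. Its log2 fold change was -0.11 with an SE of 0.04 (limma adjusted p = 0.512). Both had separate groups, and neither passed over all probe sets.

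HERC5 and PARP9 were those that were higher at an unadjusted p under 0.05. HERC5, the ligase that attaches ISG15 to proteins, had 7.39, 7.40 and 7.15 in DLD-1/DKK1 and 7.06, 6.93 and 7.01 in DLD-1/Mock arrays. Its log2 fold change of 0.31 was the highest of the 36 (95% interval 0.12 to 0.50, SE 0.08, limma adjusted p = 0.398). PARP9, of the same family as PARP14, works with the ligase DTX3L. PARP9 had 8.38, 8.39 and 8.28 in DLD-1/DKK1 and 8.24, 8.12 and 8.27 in DLD-1/Mock arrays. The groups differed by 0.14 with an SE of 0.06 (limma adjusted p = 0.534). The groups were separate for both genes, and the change did not pass for either.

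**Figure D4:**
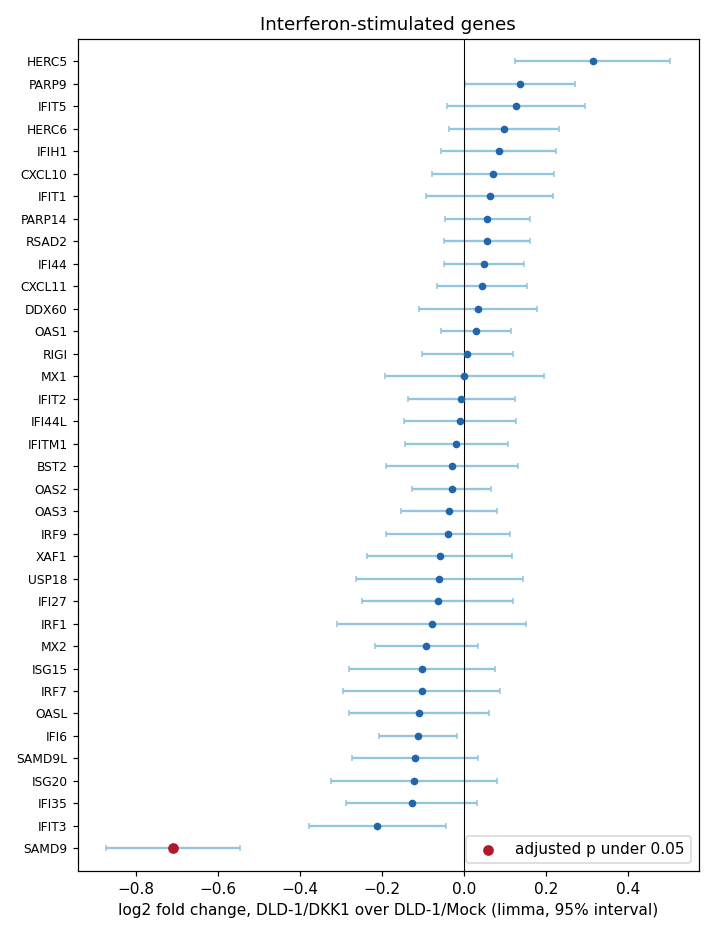
Log2 fold change with DKK1 (horizontal axis, DLD-1/DKK1 minus DLD-1/Mock) of the 36 interferon-stimulated genes, where points are limma estimates from 3 arrays in each group and whiskers span the 95% interval. SAMD9 lies lowest at -0.71 and is the 1 gene past the threshold (red), HERC5 lies highest at 0.31, and 31 of the 36 intervals cover 0.

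Among the transcription factors, IRF9, the DNA-binding subunit of the complex at the ISRE, had 7.57, 7.62 and 7.75 in DLD-1/DKK1 and 7.77, 7.67 and 7.63 in DLD-1/Mock arrays. The groups overlapped, with a log2 fold change of -0.04 and a 95% interval of -0.19 to 0.11. The log2 fold change of IRF7, which amplifies type I interferon, was -0.10 and that of IRF1, a factor of interferon-gamma responses, was -0.08, both with overlapping groups. IRF1 showed the largest SD of the 36 genes within the DLD-1/Mock group, 0.20.

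The listed sensors of viral RNA had estimates slightly above 0, with limma intervals that cover 0. RIGI had a log2 fold change of 0.01, IFIH1 one of 0.08 and the helicase DDX60 one of 0.03. Their mean log2 expression was 8.79, 8.45 and 5.14 in DLD-1/DKK1 and 8.78, 8.37 and 5.11 in DLD-1/Mock cells, and no group was separate from the other. Sensors outside the listed genes differed in sign. Of 15 genes that sense nucleic acids or relay the signal, 13 lay below 0, among them the sensors DHX58 (-0.17) and TLR3 (-0.11). The sensor TLR7 (0.0008) and TRIM25 (0.02) lay above 0. The limma interval covered 0 for DHX58, TLR7 and TRIM25 but not for TLR3.

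In the IFIT family, whose proteins bind viral RNA, values differed in sign. IFIT1 had a log2 fold change of 0.06, IFIT2 one of -0.01 and IFIT5 one of 0.13, beside the -0.21 of IFIT3, although the 4 genes lie together on chromosome 10. IFIT1B, a relative outside the listed genes named here after its value was seen, had -0.13 with separate groups (limma adjusted p = 0.503). It was dim, at percentile 8.59 of all genes. Signs also differed among the OAS genes of chromosome 12, with 0.03 for OAS1, -0.03 for OAS2 and -0.04 for OAS3. OASL, a relative without the enzyme activity, had 5.86, 5.86 and 5.88 in DLD-1/DKK1 and 5.90, 6.14 and 5.90 in DLD-1/Mock arrays. Its groups were separate, and its log2 fold change of -0.11 did not pass (limma adjusted p = 0.645).

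Proteins that act on membranes or viral particles included, with their log2 fold changes, the GTPases MX1 (0.00) and MX2 (-0.09). Others were IFITM1 (-0.02), which blocks viral entry, the tether BST2 (-0.03) and RSAD2 (0.06), which makes a chain-terminating nucleotide. None of the 5 had separate groups, and their mean log2 values were 4.84 to 6.34 in DLD-1/DKK1 and 4.87 to 6.36 in DLD-1/Mock cells. IFITM1 has close paralogues, so its probes may also report those. Further log2 fold changes lay near 0. The exonuclease ISG20 had -0.12, IFI35 had -0.13, IFI27 had -0.06 and the XIAP-binding protein XAF1 had -0.06, all with overlapping groups. The chemokines CXCL10 and CXCL11 had 0.07 and 0.04, and IFI44 and IFI44L had 0.05 and -0.01. HERC6, which lies next to HERC5 on chromosome 4, had 0.10 with separate groups and PARP14 had 0.06.

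The ISG15 conjugation genes, with HERC5 as the ligase, were put together after their values were seen. HERC5 lay above 0, at 0.31 as given above, and the others lay below it. ISG15, a ubiquitin-like modifier, had a log2 fold change of -0.10, and USP18, which removes it, had -0.06. UBA7, the activating enzyme, had 5.98, 5.96 and 5.97 in DLD-1/DKK1 and 6.12, 6.20 and 6.13 in DLD-1/Mock arrays, with a log2 fold change of -0.18 (limma adjusted p = 0.357). UBE2L6, the conjugating enzyme, had 7.91, 8.11 and 7.96 in DLD-1/DKK1 and 8.16, 8.36 and 8.25 in DLD-1/Mock arrays, with a log2 fold change of -0.26 (limma adjusted p = 0.456). As the 5 genes were chosen on these values, their signs are a description, and 0 of the 5 passed in limma over all probe sets. A further probe set, shared by USP18 and USP41P, had a log2 fold change of 0.09.

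Further interferon-stimulated genes were read from a list of 48, of which 44 were measured. LGALS3BP passed as lower and 0 passed as higher. LGALS3BP, a secreted glycoprotein that binds galectins and is induced by interferon, had 9.17, 9.25 and 9.18 in DLD-1/DKK1 and 9.77, 9.85 and 9.82 in DLD-1/Mock arrays. The groups were separate, and differed by -0.61 (95% interval -0.72 to -0.51, SE 0.04, limma adjusted p = 0.0163). Without adjustment, 7 of the 44 were lower (15.9%, against 5.45% of all genes) and 2 higher (4.55%, against 4.67%). The median log2 fold change of the list was -0.01, that of all genes. APOL1, a secreted lipoprotein component named here after its value was seen, was among the 7 with -0.31 (limma adjusted p = 0.398). LGALS3BP lost its call without any one array, and with a replicate block or no moderation (limma adjusted p 0.0716 to 0.223).

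Most of the interferon genes themselves lay near the bottom of the scale. Of 16 measured ligand genes, 13 were in the lowest 25% of all genes, and IFNB1 had 4.32 in both groups. Outside it were the type III genes IFNL1, IFNL2 and IFNL3, at percentiles 31.2, 40.8 and 60.9 of all genes. IFNL3 had 8.33, 8.52 and 8.40 in DLD-1/DKK1 and 8.54, 8.74 and 8.55 in DLD-1/Mock arrays, which were separate, with a log2 fold change of -0.19 (limma adjusted p = 0.53). Its probes may also report the close copies of this gene. Of the 16, 0 passed in limma over all probe sets. IFNL3 was the 1 with an unadjusted limma p under 0.05 (6.25%, against 5.45% of all genes that were lower).

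Receptors and kinases were bright, with 0 of 9 in the lowest 25%, and 0 passed. JAK1, the kinase shared by the receptors, had 10.95, 10.97 and 10.92 in DLD-1/DKK1 and 10.71, 10.85 and 10.79 in DLD-1/Mock arrays, with a log2 fold change of 0.16 (limma adjusted p = 0.465). JAK2, a kinase of the interferon-gamma receptor, had 7.46, 7.43 and 7.34 in DLD-1/DKK1 and 7.28, 7.10 and 7.29 in DLD-1/Mock arrays, with 0.18 (limma adjusted p = 0.512). These 2 were the genes of the list with an unadjusted limma p under 0.05 (22.2%, against 4.67% of all genes that were higher). All DLD-1/DKK1 arrays lay above those of DLD-1/Mock for both and for 1 more of the 9 (33.3%, against 9.69% of all genes), and below them for 2 (22.2%, against 9.8%).

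Of 15 genes that sense nucleic acids or relay the signal, 13 had a fold change below 0 (86.7%, against 53.6% of all genes) and 0 passed. MAVS, the mitochondrial adaptor of RIGI and IFIH1, had 8.99, 9.03 and 8.96 in DLD-1/DKK1 and 9.08, 9.12 and 9.13 in DLD-1/Mock arrays, a log2 fold change of -0.11 (limma adjusted p = 0.519). TLR3, the endosomal receptor for double-stranded RNA, had 9.93, 9.95 and 9.92 in DLD-1/DKK1 and 9.99, 10.07 and 10.08 in DLD-1/Mock arrays, also -0.11 (limma adjusted p = 0.531). Both had separate groups, and these 2 were the genes of the list with an unadjusted limma p under 0.05 (13.3%, against 5.45% of all genes). All DLD-1/DKK1 arrays lay below those of DLD-1/Mock for 4 of the 15 (26.7%, against 9.8% of all genes). They lay above them for 0 of the 15 (against 9.69% of all genes). Of 8 further regulators, which included UBA7, SOCS1 and SOCS3, 0 passed in limma, and the median was 0.00. UBA7 was the 1 with an unadjusted limma p under 0.05 (12.5% of the 8, against 5.45% of all genes that were lower).

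In the deposited values, the sign of a fold change went with brightness across the whole array, and the listed genes followed it. Among all genes, 68.9% of those below the median brightness and 38.3% of those above it had a fold change below 0, with medians of -0.04 and 0.02. The listed genes had a negative value in 16 of 24 below and 5 of 12 above that brightness, with medians of -0.03 and 0.02. Over the 36 genes, 21 were thus below 0, and the number was 14 after median centring, 18 after cyclic loess and 19 after quantile normalisation. For all genes, the shares below 0 under and over the median brightness were 56.3% and 45.1% with quantile normalisation. They were 55.1% and 45.6% with cyclic loess, and 42.7% and 16.6% with median centring. SAMD9 and LGALS3BP were below 0 after each of these rescalings.

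**Figure D5:**
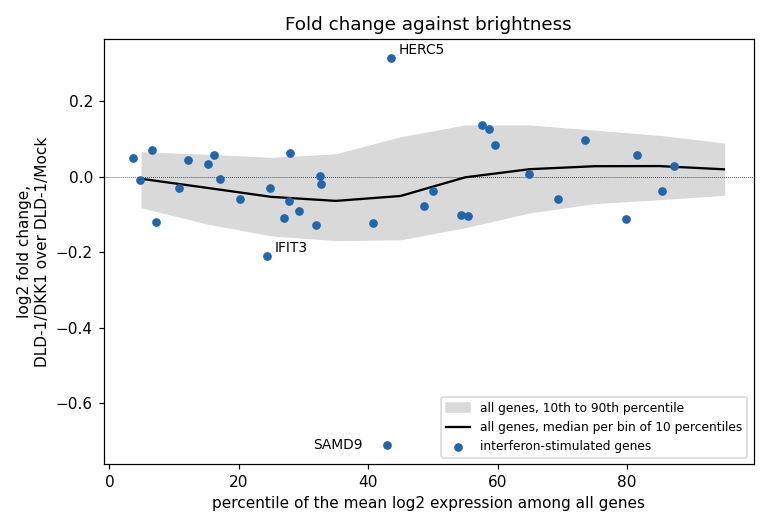
Log2 fold change with DKK1 (vertical axis, DLD-1/DKK1 minus DLD-1/Mock) against the percentile of mean log2 expression among all genes (horizontal axis) for the 36 interferon-stimulated genes (blue), with the median of all genes in bins of 10 percentiles (line) and their 10th to 90th percentile (grey). Most listed genes follow the line, which runs from -0.06 to 0.03, and SAMD9 at -0.71 and HERC5 at 0.31 lie furthest from it.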

How the data were processed

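RNA of the 6 dishes (DLD-1/DKK1, DLD-1/Mock) was measured on Human Gene 1.0 ST arrays (Affymetrix). The authors made the deposited log2 values in R (affy package) by the robust multichip average method. It equalises the probe values of the arrays, so that a shift shared by most transcripts can be lost and low values are compressed. The medians over all probe sets were still separate, at 6.757 to 6.809 in DLD-1/DKK1 and 6.824 to 6.861 in DLD-1/Mock arrays. Tool versions are not given in the sources used here. Of 32321 probe sets, 19158 carried 1 gene symbol in the platform annotation, and symbols were updated through the gene number (GRCh38.p14). For each gene the probe set with the highest mean was kept, which left 18404 genes, over which shares at an unadjusted p and of separate groups were counted.

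All probe sets were fitted with limma 3.58.1 in R 4.3.3 (lmFit, eBayes, 4 residual and 2.56 prior degrees of freedom), two-sided, with Benjamini-Hochberg adjustment over all 32321 and a threshold of 0.05. The number of arrays limits the precision. Members and lists were chosen with earlier results of these data known. Values are given for every array for SAMD9, SAMD9L, IRF9, genes with an unadjusted p under 0.05, and the 3 brightest and 3 dimmest members. From each other list, genes past the threshold or else up to 2 with the smallest unadjusted p under 0.05 are named. As alternatives, the arrays were rescaled (median centring, quantile normalisation or, chosen after seeing the data, cyclic loess), probe sets without annotation or below the median brightness were dropped, the prior was trended and robust or left out, arrays were weighted, a replicate block was fitted, and single arrays were omitted. The fit was tested on simulated data.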

Additional observations from a re-analysis of the deposited data

How the results depend on the processing

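SAMD9 kept its direction under all 15 alternatives run on it and its call under 5 of them: annotated probe sets alone, those above the median brightness, a trended and robust prior, array weights, and without Mock 2. The log2 fold change was -0.67 with quantile normalisation, -0.66 with median centring, -0.67 with cyclic loess (chosen after seeing the data), and -0.71 with no moderation or a replicate block, none past the threshold, and with 1 array left out it ran from -0.78 to -0.66. Its limma adjusted p was 0.0281 without Mock 2 and 0.169 to 0.226 without any other array. With 1 array left out the sign could not turn, since the groups do not overlap. The number of listed genes past the threshold was 0 under those 5 lost settings and 0 or 1 with 1 array left out. With 0 called, 3 to 4 of the listed genes had an unadjusted limma p under 0.05 in those 5 settings. The replicate numbers do not pair the arrays: deviations of same-numbered arrays correlated at 0.105, 0.0082 and -0.137, and the replicate block gave 1 probe set in all and 3 listed genes with an unadjusted p under 0.05. That count was 2 without DKK1 1, 3 without Mock 1, and 2 to 6 over all arrays left out.

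The median log2 fold change of the listed genes, -0.02, became 0.028 with median centring, -0.0053 with quantile normalisation, -0.0020 with cyclic loess, and -0.035 to -0.0015 with 1 array left out. Past the threshold in all were 17 probe sets with median centring, 98 among annotated and 66 among bright probe sets, 53 with a trended and robust prior, 59 with array weights, 1 without moderation, and 2 to 6 when 1 array was omitted, with fewer arrays in the fit. The cause of the other shifts was not tested. IFI44L turned to 0.024 with array weights and 0.044 with median centring, and ran from -0.052 to 0.023 with 1 array left out. IRF9 turned to 0.014 and OAS3 to 0.015 with median centring, and they ran from -0.090 to 0.00055 and from -0.068 to 0.00099 with 1 array left out. None of the 3 had passed. A mean over several probe sets of a gene was not run, since no listed gene had more than 1.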
